A study of Mus musculus with 18 samples.

Results

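The collagen chain genes of the mouse were described in adipose tissue of control mice and of mice with raised human FXR in fat. Members were all genes with a symbol of the form Col, a number, a and a number, among probe sets annotated with 1 symbol. They numbered 44 of the 19937 genes measured, and the probe set with the highest mean intensity over the 18 arrays stood for each gene. All 44 gene IDs were found in the RefSeq gene table with the same symbol. The rule goes by symbol, and signal enters it only in the choice of the brightest probe set of Col6a5 and Col6a6, the 2 members with several.

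The samples came from male C57BL/6J mice aged 10 weeks and fed chow, and each of 18 arrays held the RNA of 1 tissue sample. Brown adipose tissue (BAT) was measured in 5 wild type control mice and 5 mice overexpressing human FXR in adipose tissue (hFXR). White adipose tissue (WAT) was measured in 4 control and 4 hFXR mice. FXR, the farnesoid X receptor, is a nuclear receptor for bile acids. The promoter that drives the human gene, the WAT depot and any sharing of mice between BAT and WAT are not given in the sources used here. For control BAT samples 2 and 4, the extraction notes also mention 6 weeks of feeding. The samples of a group are labelled as separate samples, and p-values measure the spread between them.

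Collagens are extracellular proteins whose chains wind into a triple helix. Fibrillar collagens are cut outside the cell and assemble into crosslinked fibrils, fibril-associated collagens sit on their surface, and other collagens form networks, beaded filaments or basement membranes. In adipose tissue each adipocyte is wrapped in a basement membrane rich in type IV and type VI collagen, while fibroblast-like stromal cells make most of the fibrillar collagen.

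Levels are given as log2(intensity + 1), changes as hFXR minus control on that scale with the standard error (SE) of the fit, and p-values as adjusted by Benjamini-Hochberg over all 19937 genes in limma, with a threshold of 0.05. A level belongs to its own probe set and was not compared between genes. Array medians lay between 93.1 and 99.9 intensity units in BAT and between 60.5 and 61.7 in WAT. A probe set is called near the floor here where its intensity was below 1.5 times the 1% quantile of the array. That held for 28.7% to 34.9% of probe sets in BAT and for 58.2% to 62.8% in WAT. Near the floor, changes are compressed. By the probe set used, 1 collagen gene (Col6a5) was near the floor on all BAT arrays, though its second probe set was above it on all 10, and 19 were near it on all WAT arrays. The mouse FXR gene Nr1h4 differed by 0.05 in BAT (adjusted p = 0.408) and 0.03 in WAT (adjusted p = 0.834). A mouse probe set need not report the human transcript, so this does not check the transgene. Ucp1, the uncoupling protein of brown fat, lay between 12.61 and 13.42 on BAT arrays and between 5.73 and 6.01 on WAT arrays. Lep, the leptin gene of mature adipocytes, was higher in hFXR than in control arrays by 0.99 ± 0.23 in BAT (adjusted p = 0.0143) and by 1.30 ± 0.22 in WAT (adjusted p = 0.0323).

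Several arrays stood apart. The mean over 12 skeletal muscle markers was 11.04, 10.51 and 11.02 on hFXR BAT 1, 2 and 4, and between 6.93 and 9.29 on the other BAT arrays. Control BAT 4 had the highest level of the control BAT arrays for 10 of the 15 collagen genes called in BAT below. hFXR WAT 4 had the highest level of the hFXR WAT arrays for 14 of those 15. Within their groups, hFXR BAT 4 and control WAT 3 were each highest for 9 of the 15, and control WAT 2 and hFXR WAT 1 each lowest for 9. Values without control BAT 4, hFXR WAT 4 or hFXR BAT 1, 2 and 4 are given for the members they bear on most.

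In BAT, 15 of 44 collagen genes were higher in hFXR mice and 0 were lower, while 7.00% of all genes were called higher and 8.72% lower. The higher genes were all 6 fibrillar chains of soft tissue (Col1a1, Col1a2, Col3a1, Col5a1, Col5a2 and Col5a3), fibril-associated Col12a1 and Col14a1, the type VI chains Col6a1, Col6a2 and Col6a3, Col8a1, Col15a1, Col18a1 and Col28a1. The chains that rose most were Col14a1, Col1a2, Col3a1, Col1a1 and Col8a1, each by at least 2.79-fold. The 6 type IV chains, the 5 fibrillar chains typical of cartilage or of the long fibrillar types and the 4 transmembrane chains gave no call. In these bulk samples, more cells of a type and more RNA per cell cannot be told apart. The median change was 0.08 over the 44 members and 0.01 over all genes. Changes lay above 0 for 41 members and for 11223 of all 19937 genes. With each array centred on its median, the median change was -0.0025 over the members and -0.068 over all genes. At an unadjusted p below 0.05 in limma, 21 members were higher and 0 lower, as were 13.8% and 14.4% of all genes. For 13 members all hFXR arrays lay above all control arrays, an arrangement seen in 5.88% of all genes.

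**Figure D1:**
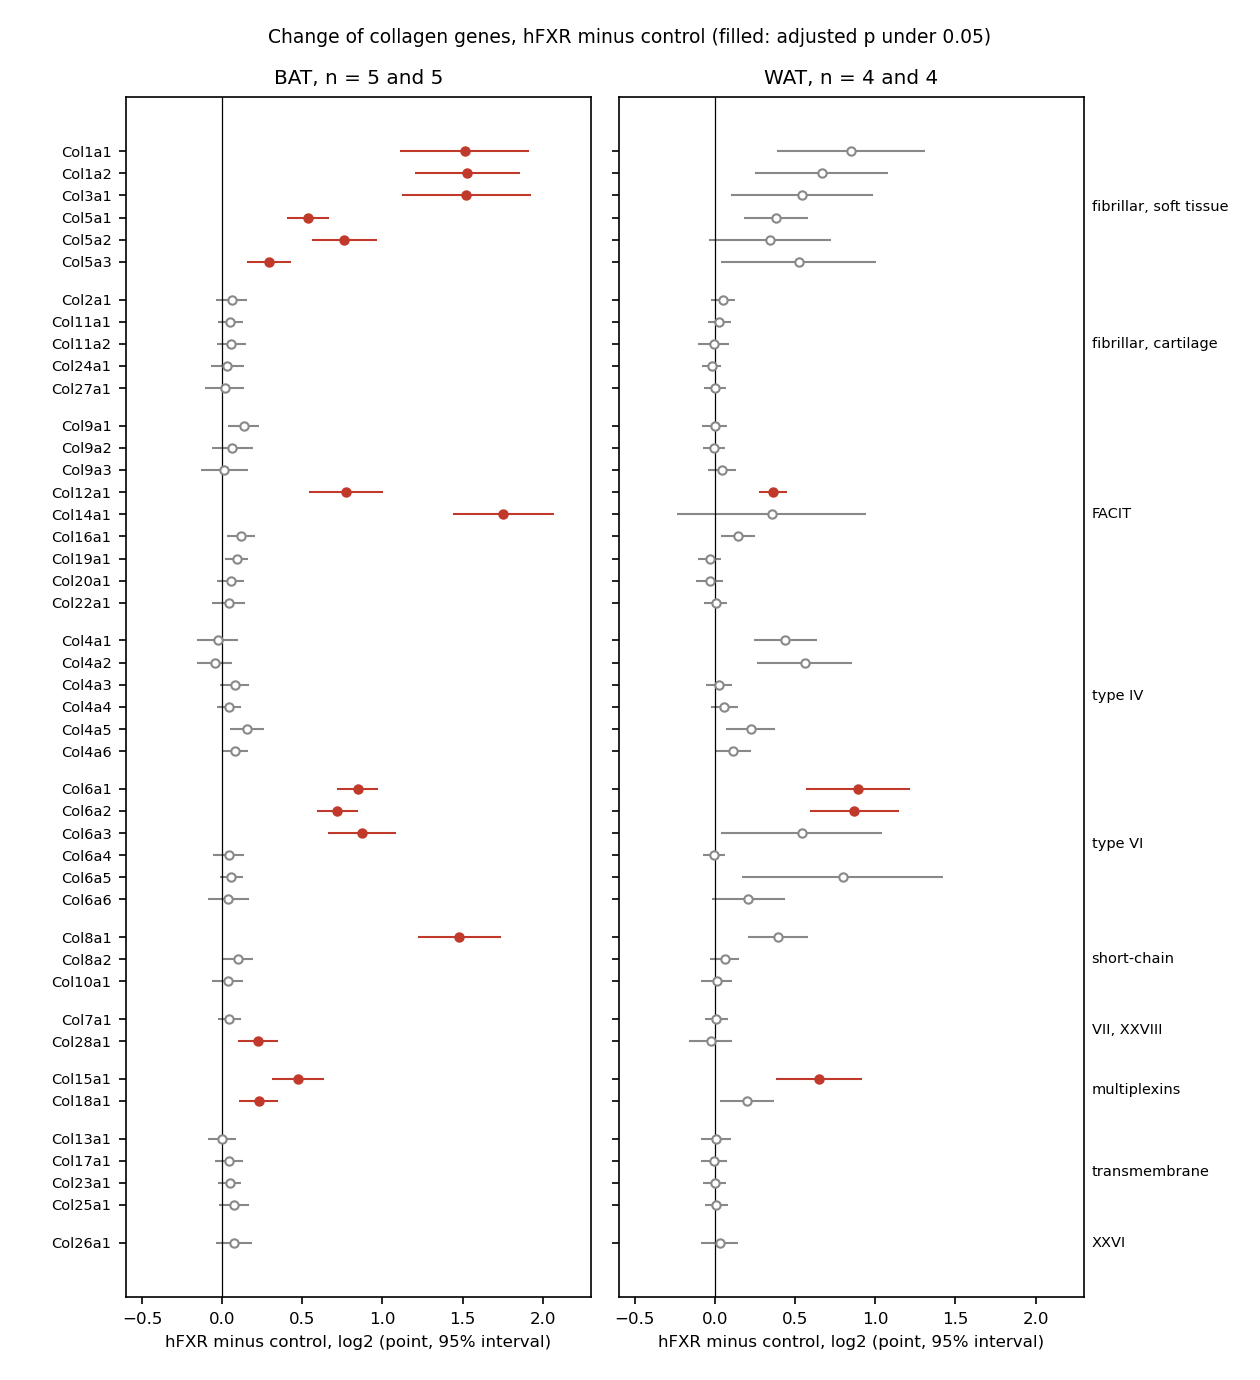
Change of each of the 44 collagen genes, hFXR minus control in log2 units with its 95% interval from limma, grouped by collagen class, for BAT and WAT. Filled points passed an adjusted p of 0.05, and the BAT changes of Col14a1, Col1a2, Col3a1, Col1a1 and Col8a1 (1.75 to 1.48) lie farthest from 0.

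Type I collagen, a trimer of chains from Col1a1 and Col1a2, is the main fibril of most connective tissue. Col1a1 levels were 9.23, 9.18, 9.12, 9.88 and 8.99 on the control BAT arrays 1 to 5 and 10.52, 10.70, 10.50, 11.29 and 10.94 on the hFXR BAT arrays 1 to 5. Every hFXR array lay above every control array, and control BAT 4 was the highest control. The change was 1.51 ± 0.18 (SE), or 2.85-fold (adjusted p = 0.000339). Its partner Col1a2 was at 8.96, 8.88, 9.14, 9.57 and 8.86 in control BAT and at 10.49, 10.46, 10.43, 11.04 and 10.62 in hFXR BAT. The groups did not overlap, and the change was 1.53 ± 0.15, or 2.88-fold (adjusted p = 0.000101). Type III collagen is built from Col3a1 chains and forms fine fibrils together with type I. Col3a1 was at 9.38, 9.30, 9.33, 10.04 and 9.30 in control BAT and 10.95, 10.60, 10.79, 11.52 and 11.11 in hFXR BAT. Control BAT 4 was again the highest control, and it stayed below the lowest hFXR array. Col3a1 rose by 1.52 ± 0.18, or 2.87-fold (adjusted p = 0.000313). Without control BAT 4 the changes were 1.66 for Col1a1, 1.65 for Col1a2 and 1.66 for Col3a1, and without hFXR BAT 1, 2 and 4 they were 1.44, 1.45 and 1.48.

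Type V collagen sits inside type I fibrils and helps to start them. Col5a1 was at 7.28, 7.22, 7.31, 7.36 and 7.48 in control BAT and at 7.85, 7.76, 7.78, 7.98 and 7.96 in hFXR BAT, with no overlap. It rose by 0.54 ± 0.06, or 1.45-fold (adjusted p = 0.000187). Col5a2 was at 7.23, 7.17, 7.36, 7.47 and 7.28 in control BAT and 8.22, 7.83, 7.87, 8.29 and 8.10 in hFXR BAT, again without overlap, a rise of 0.76 ± 0.09, or 1.70-fold (adjusted p = 0.000347). Its remaining chain, Col5a3, rose by 0.29 ± 0.06 (adjusted p = 0.00956) and its groups overlapped. Without hFXR BAT 1, 2 and 4 the Col5a3 change was 0.21 and no longer passed the test (adjusted p = 0.156). It was also not called without control BAT 2 and 4 (0.29, adjusted p = 0.0691) or in the fit on all 18 arrays.

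**Figure D2:**
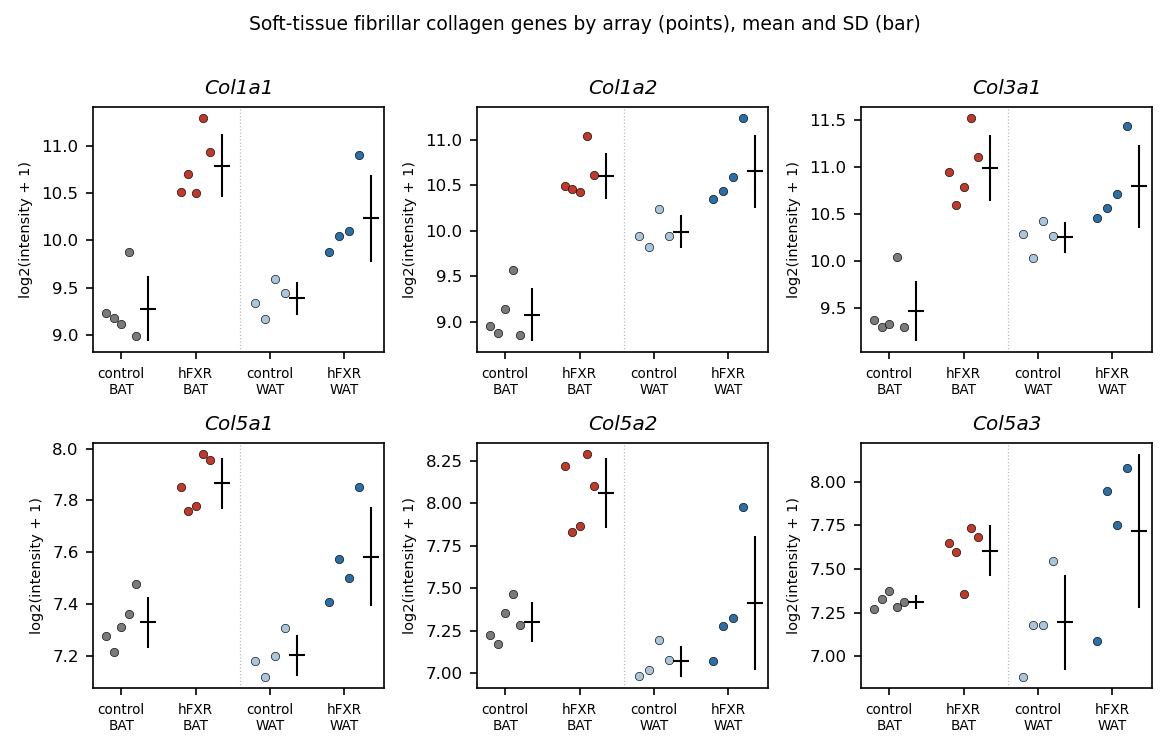
Levels of the 6 soft-tissue fibrillar collagen genes as log2(intensity + 1), with an axis range per gene, by group, with 1 point per array and a bar for the group mean and SD. All BAT arrays of hFXR mice lie above the BAT control arrays for Col1a1, Col1a2 and Col3a1, while the WAT groups lie closer together.

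The windows around the start sites of Col1a2, Col3a1 and Col8a1 are shown because these 3 of the 5 most raised genes had an entry in the RefSeq promoter table. Each runs from 250 bases before to 50 after the annotated start on GRCm38.p6, 5′ to 3′ along the gene. Capitals mark 3 short promoter elements on either strand, the TATA motif TATAAA, the CCAAT motif and the GC box GGGCGG, where a match on the opposite strand is written as its reverse complement.
Col1a2, chr6:4505368-4505667, plus strand: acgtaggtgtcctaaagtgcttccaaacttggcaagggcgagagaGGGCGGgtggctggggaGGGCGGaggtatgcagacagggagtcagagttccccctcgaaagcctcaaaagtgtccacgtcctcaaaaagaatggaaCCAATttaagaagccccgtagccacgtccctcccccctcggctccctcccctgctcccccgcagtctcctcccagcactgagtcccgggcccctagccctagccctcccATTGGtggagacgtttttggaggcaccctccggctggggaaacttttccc
Col3a1, chr1:45311288-45311587, plus strand: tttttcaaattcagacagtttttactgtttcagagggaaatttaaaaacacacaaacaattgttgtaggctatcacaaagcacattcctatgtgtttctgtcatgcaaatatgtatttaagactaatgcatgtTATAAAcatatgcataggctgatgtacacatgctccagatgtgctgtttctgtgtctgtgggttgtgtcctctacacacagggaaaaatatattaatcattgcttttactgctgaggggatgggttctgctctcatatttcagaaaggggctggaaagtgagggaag
Col8a1, chr16:57754688-57754987, minus strand: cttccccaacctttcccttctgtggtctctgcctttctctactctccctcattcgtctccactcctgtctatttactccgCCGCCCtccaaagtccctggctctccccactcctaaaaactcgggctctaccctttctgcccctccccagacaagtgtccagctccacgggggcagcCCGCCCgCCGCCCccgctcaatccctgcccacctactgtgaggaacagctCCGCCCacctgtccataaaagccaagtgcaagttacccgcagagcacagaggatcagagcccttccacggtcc

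The Col1a2 window held CCAAT 2 times and GGGCGG 2 times, the Col3a1 window held TATAAA 1 time and neither of the others, and the Col8a1 window held GGGCGG 4 times. The windows differed in composition, with 61.0%, 37.7% and 60.3% G or C for Col1a2, Col3a1 and Col8a1. In the whole promoter table, 35 collagen genes had 38 windows. TATAAA stood in 13.2% of these and in 13.6% of all 32851 windows, and CCAAT in 34.2% and 37.4%. GGGCGG stood in 60.5% of collagen windows, which belong to 22 members, and in 35.7% of all windows. The inverted repeat IR-1, AGGTCA followed after 1 base by its reverse complement, is the classical element bound by FXR with RXR. With exact letters it stood in 0 of 38 collagen windows and in 3 of all windows. A match to these letters is a description of the window and no evidence of binding.

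Col12a1 and Col14a1 encode fibril-associated collagens that decorate type I fibrils. Col14a1 was at 7.11, 7.08, 7.53, 7.66 and 7.61 on control BAT arrays and 9.00, 9.01, 8.97, 9.54 and 9.24 on hFXR BAT arrays. The groups were far apart, and Col14a1 had the largest change of all collagen genes, 1.75 ± 0.14, or 3.37-fold (adjusted p = 4.46e-05). Col12a1 was at 7.28, 7.54, 7.19, 7.63 and 7.33 in control BAT and at 7.99, 7.98, 8.42, 8.14 and 8.31 in hFXR BAT. Its groups did not overlap either, and it rose by 0.77 ± 0.10, or 1.71-fold (adjusted p = 0.00068). Without hFXR BAT 1, 2 and 4 the Col12a1 change was 0.97 and the Col14a1 change 1.70. The other 7 fibril-associated chains, Col9a1, Col9a2, Col9a3, Col16a1, Col19a1, Col20a1 and Col22a1, were not called, with changes between 0.01 and 0.13.

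Type VI collagen forms beaded filaments between fibrils and the basement membranes of adipocytes, and its common form joins the chains of Col6a1, Col6a2 and Col6a3. Col6a1 was at 7.98, 8.07, 8.10, 8.28 and 7.94 in control BAT and at 8.94, 8.92, 8.85, 8.92 and 8.97 in hFXR BAT. The hFXR arrays lay close together and above every control. The rise was 0.85 ± 0.06, or 1.80-fold (adjusted p = 1.38e-05). Col6a2 was at 7.68, 7.76, 7.73, 7.99 and 7.76 in control BAT and 8.45, 8.47, 8.44, 8.62 and 8.53 in hFXR BAT. It rose without overlap by 0.72 ± 0.06, or 1.64-fold (adjusted p = 4.46e-05). Col6a3 was at 8.01, 8.01, 7.92, 8.42 and 7.86 in control BAT and 8.77, 8.95, 8.83, 9.07 and 8.95 in hFXR BAT. Its rise of 0.87 ± 0.10, or 1.83-fold (adjusted p = 0.000214), was likewise free of overlap, with control BAT 4 the highest control for all 3 chains. Without that array the rises were 0.90, 0.77 and 0.96 for Col6a1, Col6a2 and Col6a3. The alternative chains Col6a4, Col6a5 and Col6a6 were not called, with changes of 0.04, 0.06 and 0.04. The second probe sets of Col6a5 and Col6a6 gave 0.01 and -0.02.

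Col8a1 encodes a short-chain collagen of sheet-like networks found around vessels and in the matrix beneath some endothelia. It was at 6.72, 6.84, 6.88, 6.84 and 6.98 on control BAT arrays and 7.90, 8.24, 8.67, 8.43 and 8.43 on hFXR BAT arrays. The lowest hFXR array was well above the highest control, and Col8a1 rose by 1.48 ± 0.12, or 2.79-fold (adjusted p = 3.45e-05). Without hFXR BAT 1, 2 and 4 the change was 1.70. Its partner chain Col8a2 differed by 0.10 (adjusted p = 0.165), and Col10a1, the short-chain collagen of growth plate cartilage, by 0.03 (adjusted p = 0.702).

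The multiplexins Col15a1 and Col18a1 lie at the border of basement membrane and stroma, and Col18a1 contains the endostatin fragment. Col15a1 was at 7.53, 7.50, 7.48, 7.74 and 7.53 in control BAT and 8.22, 7.81, 7.99, 8.06 and 8.06 in hFXR BAT. It rose by 0.47 ± 0.07, or 1.39-fold, with no overlap (adjusted p = 0.00161), and by 0.52 without control BAT 4, the highest control. Col18a1 was at 7.09, 7.07, 7.22, 7.12 and 7.14 in control BAT and 7.53, 7.26, 7.23, 7.39 and 7.36 in hFXR BAT. The groups met closely without overlap, and the rise was 0.23 ± 0.05 (adjusted p = 0.0167). Without hFXR BAT 1, 2 and 4 the Col18a1 change was 0.17 and not called (adjusted p = 0.108). The call was also lost without control BAT 2 and 4 (0.20, adjusted p = 0.121) and under quantile normalization of all arrays (0.15, adjusted p = 0.0595). Col28a1, which encodes a chain with von Willebrand factor domains, rose by 0.22 ± 0.06 with overlapping groups (adjusted p = 0.0232). Its call was lost in 5 of 10 fits that left out 1 array, those without control BAT 2, 3 or 4 or hFXR BAT 1 or 5. Col28a1 was also not called under quantile normalization, under median centring or without control BAT 2 and 4.

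Type IV collagen is the network of basement membranes, and its common form is built from Col4a1 and Col4a2. In control BAT Col4a1 was at 8.90, 8.78, 8.64, 8.77 and 8.63, and in hFXR BAT at 8.67, 8.65, 8.65, 8.79 and 8.83. The groups overlapped, and the difference was -0.03 with a 95% interval of -0.15 to 0.10 (adjusted p = 0.822). Col4a2 was at 8.65, 8.67, 8.60, 8.65 and 8.53 in control BAT and 8.55, 8.49, 8.47, 8.64 and 8.71 in hFXR BAT. These groups overlapped as well, with a difference of -0.05 and an interval of -0.16 to 0.06 (adjusted p = 0.614). The upper ends of these 95% intervals were 0.10 and 0.06 in log2 units, with the values as deposited. The tissue-restricted chains Col4a3, Col4a4, Col4a5 and Col4a6 were not called, with differences of 0.08, 0.04, 0.16 and 0.08. Among the 29 members without a call, 6 (Col16a1, Col19a1, Col4a5, Col4a6, Col8a2 and Col9a1) had an unadjusted p below 0.05.

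The start windows of Col4a1 and Col4a2 are shown because these neighbours lie head to head on opposite strands of chromosome 8. In the promoter entries used, their start bases are 21 apart and their windows share 78 bases. The RefSeq gene table ends Col4a1 at base 11312889 and starts Col4a2 at base 11312805, so the distance depends on the entry. The windows are printed as above, each along its own gene, on GRCm38.p6.
Col4a1, chr8:11312777-11313076, minus strand: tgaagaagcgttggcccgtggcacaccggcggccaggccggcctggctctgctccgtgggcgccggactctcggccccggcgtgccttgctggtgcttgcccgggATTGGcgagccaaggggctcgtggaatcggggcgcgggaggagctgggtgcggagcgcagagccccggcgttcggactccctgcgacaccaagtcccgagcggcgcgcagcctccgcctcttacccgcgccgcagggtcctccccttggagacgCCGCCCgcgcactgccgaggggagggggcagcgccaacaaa
Col4a2, chr8:11312555-11312854, plus strand: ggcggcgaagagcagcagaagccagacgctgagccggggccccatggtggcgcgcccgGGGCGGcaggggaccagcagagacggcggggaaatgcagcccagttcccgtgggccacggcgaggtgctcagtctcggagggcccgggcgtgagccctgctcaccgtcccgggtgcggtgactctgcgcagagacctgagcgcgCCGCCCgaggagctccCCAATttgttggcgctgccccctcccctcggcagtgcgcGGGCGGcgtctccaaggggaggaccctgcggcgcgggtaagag

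The Col4a1 window held CCAAT 1 time and GGGCGG 1 time, and the Col4a2 window held CCAAT 1 time and GGGCGG 3 times, with 74.0% and 73.7% G or C. Other collagen genes also lie next to each other in the reference gene table, which gives 8 neighbouring pairs. Col3a1 and Col5a2 both rose in BAT (1.52 and 0.76), as did Col6a2 and Col6a1 (0.72 and 0.85), and the latter also rose together in WAT (0.87 and 0.89). Among the other 6 pairs, neither gene was called in BAT.

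Collagen chains need helper proteins for hydroxylation and folding in the cell and for trimming and crosslinking outside it. Of 17 measured folding and hydroxylation genes (18 listed), 8 were higher and 0 lower in hFXR BAT, beside 7.00% and 8.72% of all genes. P4hb, the shared subunit of prolyl 4-hydroxylase and a disulfide isomerase, lay between 8.99 and 9.43 on control and between 9.57 and 9.80 on hFXR BAT arrays, a rise of 0.48 ± 0.07 (adjusted p = 0.00167). P4ha2, a catalytic partner of it, rose by 0.35 ± 0.04 (adjusted p = 0.000309). The other P4ha genes listed, P4ha1 and P4ha3, were not called (0.09 and 0.08, adjusted p = 0.571 and 0.345). Serpinh1, the collagen chaperone HSP47, rose by 0.31 ± 0.05 (adjusted p = 0.00166), and P3h3, a member of the prolyl 3-hydroxylase family, by 0.30 ± 0.04 (adjusted p = 0.000703). Of 13 measured trimming and crosslinking genes (15 listed), 6 were higher and 0 lower. Pcolce, which enhances removal of the C-propeptide of procollagen, was at 7.98 to 8.62 in control and 9.58 to 9.88 in hFXR BAT. Its rise was 1.54 ± 0.11, or 2.92-fold (adjusted p = 1.58e-05), a size between those of Col1a2 and Col14a1. Lox, the lysyl oxidase that starts crosslinks, rose by 0.89 ± 0.08 (adjusted p = 7.65e-05), the procollagen protease gene Bmp1 by 0.53 ± 0.07 (adjusted p = 0.000763) and Pcolce2 by 0.63 ± 0.09 (adjusted p = 0.000812).

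Of 11 measured collagen receptors (12 listed), 5 were higher and 1 was lower in hFXR BAT, beside 7.00% and 8.72% of all genes. Ddr2, a receptor tyrosine kinase for fibrillar collagen, rose by 0.78 ± 0.09 (adjusted p = 0.000242). The rise was 0.57 ± 0.04 for Mrc2, the endocytic collagen receptor Endo180 (adjusted p = 1.02e-05), and 0.45 ± 0.04 for Itga11, the alpha 11 integrin chain (adjusted p = 0.000109). Lair1, an inhibitory receptor of leukocytes, rose by 0.25 ± 0.03 (adjusted p = 0.000589), and Adgrg6 by 0.20 ± 0.05 (adjusted p = 0.0162). Adgrg1, which encodes an adhesion receptor for type III collagen, fell by 0.26 on the log2 scale (adjusted p = 0.023).

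Markers of several cell types also differed in BAT, with some lists higher and others lower. Among all genes 7.00% were called higher and 8.72% lower. Of 9 measured fibroblast and progenitor markers, 8 were higher and 0 lower, and their mean lay between 8.03 and 8.48 on control and between 9.06 and 9.17 on hFXR arrays. All 10 macrophage markers were higher, with means of 7.05 to 7.49 and 7.91 to 8.12. Of 6 mural cell markers, 4 were higher and 1 lower, with means of 8.14 to 8.28 and 8.43 to 8.85. Of 8 endothelial markers 3 were lower, with means of 8.76 to 9.00 on control and 8.44 to 8.74 on hFXR arrays, and 7 of 8 brown adipocyte markers were lower. Of 8 general adipocyte markers 1 was higher and 5 were lower, and of 6 mesothelial and 4 Schwann cell and nerve markers 0 were called. Skeletal muscle markers, 2 of 12 of them higher, had means of 6.93 to 9.29 and 7.16 to 11.04. The part of these cells in the collagen changes was not tested.

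**Figure D3:**
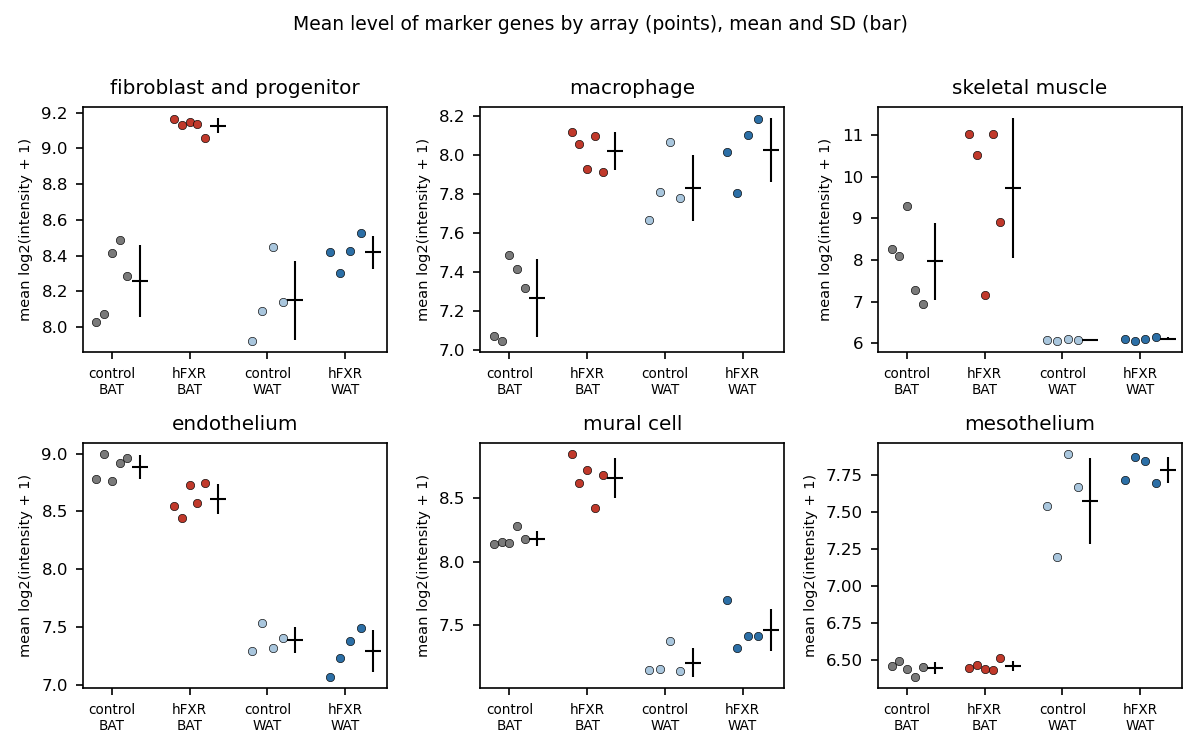
Mean log2(intensity + 1) of marker lists by group, with 1 point per array and a bar for the group mean and SD, for fibroblasts, macrophages, skeletal muscle, endothelium, mural cells and mesothelium. The fibroblast and macrophage means of hFXR BAT arrays (from 9.06 and 7.91 upward) lie above those of all control BAT arrays, whereas the WAT groups overlap.

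In WAT, 4 of 44 collagen genes were higher in hFXR mice and 0 were lower, while 0.863% of all genes were called higher and 0.456% lower. The higher genes were Col6a1, Col6a2, Col15a1 and Col12a1, and all 4 were also called in BAT. At an unadjusted p below 0.05, 18 members were higher and 0 lower, as were 7.02% and 5.47% of all genes. Of the 6 soft-tissue fibrillar chains 0 passed the adjusted test in limma, with changes between 0.34 and 0.85, and 5 had an unadjusted p below 0.05. Of the 6 type IV chains 0 passed it and 4 had an unadjusted p below 0.05. The median change was 0.06 over the members and 0.00 over all genes. For 14 members all hFXR arrays lay above all control arrays, an arrangement seen in 4.31% of all genes. Of these, 10 were not called (Col1a1, Col1a2, Col2a1, Col3a1, Col4a1, Col4a2, Col4a6, Col5a1, Col8a1 and Col16a1).

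Col6a1 was at 8.47, 8.22, 8.76 and 8.71 on the control WAT arrays 1 to 4 and 9.35, 9.43, 9.19 and 9.76 on the hFXR WAT arrays 1 to 4. The groups did not overlap, and the rise was 0.89 ± 0.14, or 1.86-fold (adjusted p = 0.0267). Col6a2 was at 7.86, 7.77, 8.24 and 7.98 in control WAT and 8.64, 8.80, 8.76 and 9.12 in hFXR WAT. It too rose without overlap, by 0.87 ± 0.12, or 1.83-fold (adjusted p = 0.0209). Col15a1 was at 8.47, 8.28, 8.24 and 8.58 in control WAT and at 8.90, 9.18, 8.79 and 9.29 in hFXR WAT. All hFXR arrays were above the controls, and the rise was 0.65 ± 0.12, or 1.57-fold (adjusted p = 0.0403). Col12a1 was at 5.95, 5.97, 6.00 and 6.00 in control WAT, near the floor on all 4 arrays, and at 6.35, 6.44, 6.27 and 6.31 in hFXR WAT. Its rise of 0.36 ± 0.04, or 1.29-fold (adjusted p = 0.00735), started from levels at which changes are compressed. Each of the 4 genes rose, but 3 of the calls depended on single arrays. Without hFXR WAT 4 the changes were 0.78 for Col6a1, 0.77 for Col6a2, 0.57 for Col15a1 and 0.37 for Col12a1. The Col6a1 call was lost in 6 of 8 fits that left out 1 array (control WAT 1, 2 or 4, or hFXR WAT 1, 2 or 4), with adjusted p up to 0.0805. The Col6a2 call was lost in 3 fits (control WAT 1, 2 or 4), with adjusted p up to 0.0687. The Col15a1 call was lost in 7 fits, all but that without hFXR WAT 3, with adjusted p up to 0.13. The Col12a1 call was kept in all 8, but it was lost in the fit on all 18 arrays, where the change was the same and its SE 0.10 (adjusted p = 0.0623). The number of called members was 1 without control WAT 1, 2 or 4 and 2 without hFXR WAT 1 or 2. The number of all genes called higher also fell, from 172 to 23, 32 and 40 without control WAT 1, 2 or 4 and to 73 and 88 without hFXR WAT 1 or 2.

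Among the fibrillar chains, Col1a1 was at 9.34, 9.17, 9.59 and 9.45 in control WAT and 9.88, 10.05, 10.10 and 10.91 in hFXR WAT. The groups did not overlap, hFXR WAT 4 was the highest array, and the change was 0.85 ± 0.20 (adjusted p = 0.0968). Without hFXR WAT 4 the change was smaller, 0.62, and passed the test (adjusted p = 0.0458). Col1a2 was at 9.95, 9.82, 10.25 and 9.94 in control WAT and 10.35, 10.44, 10.59 and 11.24 in hFXR WAT, again without overlap. The change was 0.67 ± 0.18 (adjusted p = 0.141), and 0.47 without hFXR WAT 4 (adjusted p = 0.104). Col3a1 was at 10.29, 10.03, 10.43 and 10.27 in control WAT and 10.46, 10.57, 10.71 and 11.44 in hFXR WAT, a change of 0.54 ± 0.20 (adjusted p = 0.278). Here hFXR WAT 4 stood above the other hFXR arrays, and without it the change was 0.33. Col5a1 was at 7.18, 7.12, 7.20 and 7.31 in control WAT and 7.41, 7.57, 7.50 and 7.85 in hFXR WAT, and the change was 0.38 ± 0.09 (adjusted p = 0.0862). Col5a2 was at 6.98, 7.02, 7.19 and 7.08 in control WAT and 7.07, 7.28, 7.32 and 7.98 in hFXR WAT, with overlap and a change of 0.34 ± 0.17 (adjusted p = 0.457). Without hFXR WAT 4 the Col5a2 change was 0.16. The WAT change of Col5a3 was 0.52 ± 0.21 (adjusted p = 0.357).

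The type VI chain Col6a3 was at 7.22, 7.19, 7.46 and 7.29 in control WAT and 7.41, 7.69, 7.63 and 8.60 in hFXR WAT. The groups overlapped, hFXR WAT 4 was again highest, and the change was 0.54 ± 0.22 (adjusted p = 0.358) with that array and 0.29 without it. Col6a5, an alternative chain, was at 8.07, 8.09, 8.46 and 7.09 in control WAT and 8.96, 8.69, 8.97 and 8.28 in hFXR WAT. Control WAT 4 was far below the other controls, and the change of 0.80 ± 0.28 did not pass (adjusted p = 0.253). The second Col6a5 probe set gave 0.68. Col18a1 was at 7.05, 7.02, 7.31 and 7.23 in control WAT and 7.29, 7.25, 7.42 and 7.47 in hFXR WAT, with overlap and a change of 0.20 ± 0.07 (adjusted p = 0.294).

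Of the basement membrane chains, Col4a1 was at 8.43, 8.38, 8.41 and 8.51 in control WAT and 8.75, 8.83, 8.75 and 9.16 in hFXR WAT. The groups did not overlap, and the change of 0.44 ± 0.09, with a 95% interval of 0.24 to 0.64, had an adjusted p of 0.0515 in limma. Col4a2 was at 8.53, 8.25, 8.23 and 8.43 in control WAT and 8.81, 8.78, 8.75 and 9.33 in hFXR WAT. These groups did not overlap either, and the change was 0.56 ± 0.13, with an interval of 0.26 to 0.85 (adjusted p = 0.0871). Without hFXR WAT 4, the highest array for both genes, the Col4a1 difference was 0.34 (adjusted p = 0.0228), past the threshold, and the Col4a2 difference 0.42 (adjusted p = 0.0596).

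**Figure D4:**
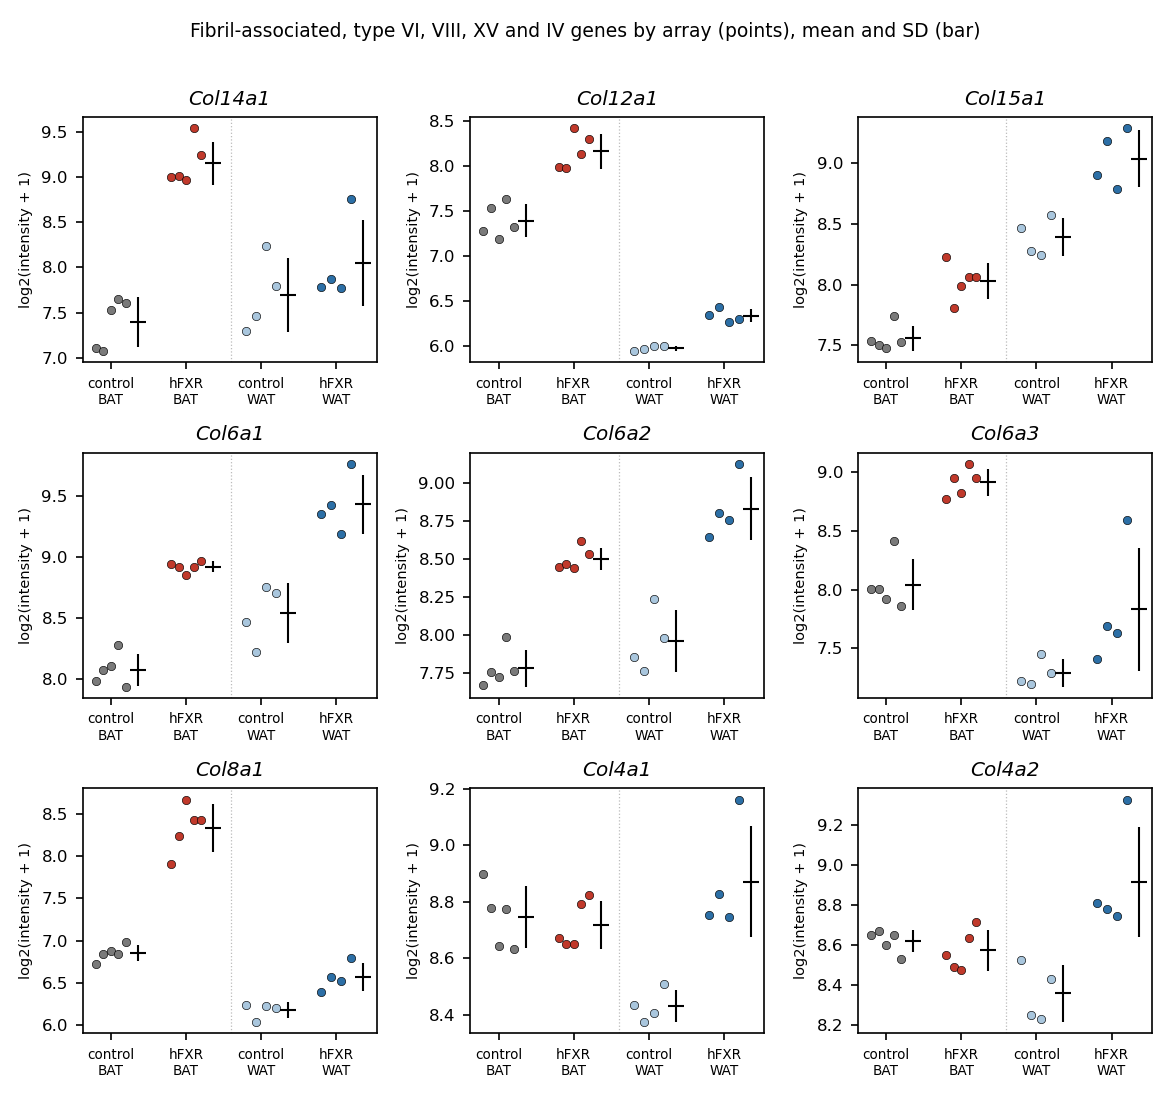
Levels of Col14a1, Col12a1, Col15a1, Col6a1, Col6a2, Col6a3, Col8a1, Col4a1 and Col4a2 as log2(intensity + 1), by group, with 1 point per array, a bar for the group mean and SD and an axis range per gene. The groups of Col4a1 and Col4a2 overlap in BAT and are separate in WAT, while those of Col6a1 and Col6a2 are separate in both.

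Col14a1 and Col8a1, both raised in BAT, gave no call in WAT. Col14a1 was at 7.30, 7.46, 8.23 and 7.79 in control WAT and 7.79, 7.88, 7.77 and 8.76 in hFXR WAT. The array hFXR WAT 4 lay clearly above the controls, and the change was 0.35 ± 0.26 (adjusted p = 0.672) with it and 0.12 without it. Col8a1 was at 6.24, 6.04, 6.23 and 6.20 in control WAT and 6.39, 6.58, 6.52 and 6.80 in hFXR WAT, without overlap. Its change was 0.40 ± 0.08 (adjusted p = 0.0622). Among the alternative settings, Col8a1 was called higher under quantile normalization, in the robust trended eBayes fit and with genes above the median level only. The remaining members without a call had WAT changes between -0.03 and 0.22. Of the companion genes, Serpinh1 rose by 0.40 ± 0.07 in WAT (adjusted p = 0.0349) as 1 of 17 folding genes, and Bmp1 (0.33, adjusted p = 0.0498) and the lysyl oxidase-like Loxl1 (0.54, adjusted p = 0.0316) as 2 of 13 trimming and crosslinking genes. Mrc2 rose by 0.74 ± 0.09 (adjusted p = 0.00947) as 1 of 11 receptors. Among all genes, 0.863% were called higher in WAT and 0.456% lower. Of the marker lists in WAT, 1 adipocyte marker was higher and 1 lower of 8, and no marker of the other 8 lists was called. The fibroblast means were 7.92 to 8.45 on control and 8.30 to 8.53 on hFXR WAT arrays, highest on hFXR WAT 4. The macrophage means were 7.67 to 8.07 and 7.80 to 8.18, and the skeletal muscle means lay between 6.05 and 6.16 on all WAT arrays. Their part in the collagen changes of WAT was not tested.

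The tissues were then set against each other by testing the WAT change minus the BAT change over all 18 arrays. For 5 of 44 collagen genes the changes differed: 2 were higher in WAT (4.43% of all genes) and 3 lower (2.03%). For the higher direction, the count of 2 members was near the share of all genes. The 2 with the larger change in WAT were the paired basement membrane genes, Col4a1 with a difference of 0.47 ± 0.11 (adjusted p = 0.0135) and Col4a2 with 0.61 ± 0.14 (adjusted p = 0.0131). Under quantile normalization neither passed (Col4a1 0.38, adjusted p = 0.0953, and Col4a2 0.51, adjusted p = 0.0894). Both also missed the threshold without control BAT 2 and 4 (adjusted p = 0.0544 and 0.0532) and without hFXR BAT 1, 2 and 4 (adjusted p = 0.0545 and 0.054). The 3 with the larger change in BAT were Col14a1 (-1.40 ± 0.30, adjusted p = 0.0101), Col8a1 (-1.08 ± 0.16, adjusted p = 0.000816) and Col1a2 (-0.86 ± 0.25, adjusted p = 0.049). The calls of Col14a1 and Col8a1 were kept in all 18 fits that left out 1 array. That of Col1a2 was lost in 15, all but those without control BAT 4, hFXR BAT 3 or hFXR WAT 4. Col8a1 was low in control WAT, at 6.04 to 6.24, where array medians over the genes were 6.08 to 6.14 in WAT. In control BAT it was at 6.72 to 6.98. How far a compressed WAT change bears on its difference was not tested. The number of members with a smaller change in WAT was 5 without control BAT 4, 6 without hFXR WAT 4, 3 without hFXR BAT 1, 4 without hFXR BAT 2 or 3, and 2 in each of the other fits. The differences of Col1a1 (-0.66, adjusted p = 0.216) and Col3a1 (-0.98, adjusted p = 0.0524) did not pass the test. For Col6a1 the difference was 0.05 with an interval of -0.28 to 0.37 (adjusted p = 0.917).

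**Figure D5:**
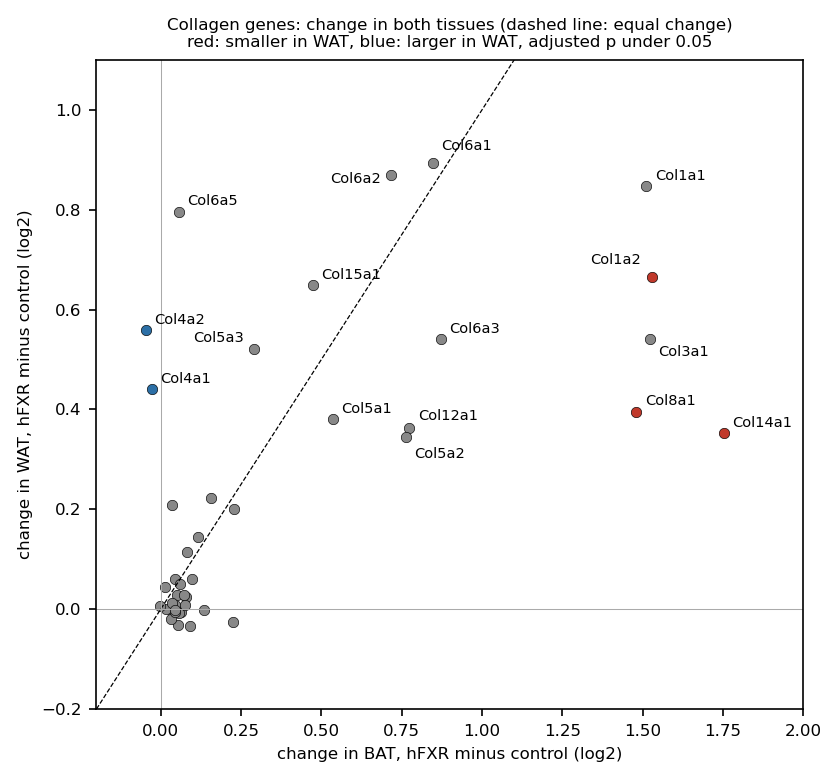
Change of each collagen gene in BAT (horizontal) and in WAT (vertical), hFXR minus control in log2 units, with the dashed line at equal change and axes of different scale. Colours mark the 5 genes whose changes differed between tissues, Col4a1 and Col4a2 (blue) above the line and Col14a1, Col8a1 and Col1a2 (red) below it.

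Control BAT was finally compared with control WAT. As deposited, 33 of 44 collagen genes were higher in BAT and 5 lower, but so were 94.8% and 1.98% of all genes, whose median difference was 0.59 in log2 units. With all arrays quantile normalized 15 were higher and 22 lower, beside 29.2% and 28.8% of all genes. With each array centred on its median 14 were higher and 24 lower, beside 36.2% and 46.8% of all genes. Under all 3 scalings 14 genes were called higher and 5 called lower, and 10 called higher as deposited were called lower under both others. The share of all genes with such calls was not computed, so these counts do not set the collagens apart from other genes. The 5 genes called lower in BAT under all 3 were the fibrillar chains Col1a2 (-0.91 ± 0.14) and Col3a1 (-0.78 ± 0.15), the type VI chains Col6a1 (-0.46 ± 0.11) and Col6a5 (-1.76 ± 0.21), and Col15a1 (-0.84 ± 0.08), as deposited. Their adjusted p-values in limma were 5.6e-05, 0.000293, 0.00128, 6.83e-06 and 5.65e-07, and the arrays of the tissues overlapped for Col3a1 and Col6a1. After quantile normalization the differences were -2.56, -2.44, -1.79, -2.69 and -2.07, in the same order. Control levels of Col6a5 were 6.24, 6.15, 6.14, 6.14 and 6.19 in BAT, all near the floor, against 8.07, 8.09, 8.46 and 7.09 in WAT. Its second probe set lay above the floor in control BAT, at 6.58 to 6.73, and gave a difference of -1.19. Of the 14 genes called higher, 11 were near the floor on all control WAT arrays. The other 3 were the cartilage fibrillar chain Col2a1, the long fibrillar chain Col27a1 and Col9a3. How the floor and the unequal array medians bear on the size of these differences was not tested. Col27a1 was at 7.66, 7.61, 7.68, 7.61 and 7.76 in control BAT and 6.35, 6.33, 6.37 and 6.32 in control WAT, a difference of 1.32 ± 0.04, and 0.40 after quantile normalization. The Col2a1 level was 7.21, 7.20, 7.27, 7.17 and 7.35 in control BAT and 6.21, 6.20, 6.20 and 6.10 in control WAT, a difference of 1.06 ± 0.04, and 0.28 after quantile normalization. Col9a3 was at 7.23, 7.11, 7.19, 6.99 and 7.25 in control BAT and 6.11, 6.17, 6.27 and 6.14 in control WAT, a difference of 0.98 ± 0.06, and 0.22 after quantile normalization. The largest differences near the WAT floor were those of Col12a1 (1.42), Col26a1 (1.15) and Col9a2 (1.07), and after quantile normalization 0.67, 0.46 and 0.31. Control BAT levels were 7.18, 7.05, 7.24, 7.03 and 7.23 for Col26a1 and 7.14, 7.10, 7.32, 7.11 and 7.39 for Col9a2. Their control WAT levels were 6.03, 5.97, 6.02 and 5.96 and 6.14, 6.17, 6.12 and 6.15.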

How the data were processed

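Per the labels' protocols, labelled cDNA was made from 500 ng of total RNA and hybridised to Affymetrix mouse gene arrays. The authors deposited 1 linear intensity per probe set and array; background correction, summarisation and normalization are not given in the sources used here. Values were kept as deposited. Of 34760 probe sets, 21640 had 1 symbol, 1321 several and 11799 none listed, and the brightest probe set per gene left 19937 genes.

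Log2(intensity + 1) was compared by two-sided tests in limma 3.58.1 (functions lmFit and eBayes, R 4.3.3), without a filter on dim genes, and the script was tested on simulated data. Comparisons were hFXR against control in BAT (5 and 5 arrays) and WAT (4 and 4), the difference of these changes over 18 arrays with 4 group means, and control BAT against control WAT (9 arrays). P-values were adjusted over all genes. No total count exists for arrays, and their number limits the precision. The gene pattern, gene lists and alternatives were chosen with earlier results of these data known. Values on every array are given for 12 collagen genes named at the outset, for the 8 largest changes among called members in each tissue, and for up to 5 or 6 called members a direction in the tissue comparisons. Up to 4 genes of each companion list were chosen per tissue by smallest adjusted p. Adgrg1, Adgrg6, P4ha1 and P4ha3 were named after their values were seen. Alternatives were quantile normalization, median centring, a pseudocount of 16, genes above the median level, means of probe sets, a robust trended eBayes fit, the replicate number as a block, a fit on all arrays, and leaving out single arrays, control BAT 2 and 4, or hFXR BAT 1, 2 and 4.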

Additional observations from a re-analysis of the deposited data

Results flagged for a closer look

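Of 84 groups of arrays checked (21 collagen genes in 4 groups), 8 held an array far from the others of its group, and chance alone flags about 1 in 20 groups. Control BAT 4 stood high for 5 genes. It was at 9.88 for Col1a1, with the other control BAT arrays at 8.99 to 9.23. For Col3a1 it was at 10.04, with the others at 9.30 to 9.38. For Col6a3 it was at 8.42 (others 7.86 to 8.01), for Col6a2 at 7.99 (others 7.68 to 7.76) and for Col15a1 at 7.74 (others 7.48 to 7.53). hFXR WAT 4 stood high for Col14a1, at 8.76 with the others at 7.77 to 7.88, and for Col4a2, at 9.33 with the others at 8.75 to 8.81. Control WAT 4 stood low for Col2a1, at 6.10 with the others at 6.20 to 6.21.

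The change of 5 collagen genes differed between tissues, as tested by the difference of the changes in limma (WAT minus BAT). The differences were -1.40 for Col14a1, -1.08 for Col8a1 and -0.86 for Col1a2, and 0.61 for Col4a2 and 0.47 for Col4a1. Over all genes, 2.03% had a lower and 4.43% a higher change in WAT, beside 3 and 2 of the 44 members. The count of 2 members was near the share of all genes.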

How the results depend on the processing

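In BAT the number of higher collagen genes ranged from 12 to 18 over all alternatives, and 0 were lower in each. With 1 array left out it ranged from 14 to 18. Without control BAT 2 and 4, 12 members and 700 of all genes were higher, and without control BAT 5, 18 members and 1343 genes. The setting with genes above the median level only tested 9968 genes. Members tested there numbered 30 in BAT, 29 in WAT, 28 for the difference between tissues and 29 between control tissues. In WAT, 7 of 29 members were higher with genes above the median level only, beside 238 of 9968 genes. In the fit on all arrays 7 were higher, beside 294 of all genes. With the replicate number as a block 7 were higher (Col12a1, Col15a1, Col4a1, Col5a1, Col6a1, Col6a2 and Col6a5), beside 135 of all genes. With 1 array left out 1 to 4 were higher, beside 23 to 243 of all genes. For the difference between tissues, higher members numbered 0 under quantile normalization, 0 without control BAT 2 and 4 and 0 without hFXR BAT 1, 2 and 4. Higher genes in these settings numbered 464, 482 and 796 over all genes. With 1 array left out 2 to 3 members were higher, beside 623 to 1067 of all genes. Lower members numbered 5 of 28 with genes above the median level only, beside 390 of 9968 genes. They numbered 5 without control BAT 2 and 4, beside 239 of all genes. With 1 array left out they numbered 2 to 6, beside 278 to 621 of all genes. Between control tissues, higher members numbered 15 (quantile) and 14 (centred), beside 5826 and 7210 of all genes. With genes above the median level only they numbered 17 of 29, beside 9209 of 9968 genes. With 1 array left out they numbered 32 to 34, beside 18784 to 18870 of all genes. Lower members numbered 22 (quantile) and 24 (centred), beside 5745 and 9323 of all genes. With 1 array left out they numbered 5 to 7, beside 359 to 409 of all genes. Directions between control tissues reversed under quantile normalization and centring for Col4a1 (-1.11 and -0.35), Col4a2 (-1.14 and -0.40), Col5a1 (-0.93 and -0.54) and Col5a2 (-0.80 and -0.43), and under quantile normalization for Col6a3 (-0.46). The cause was not tested.

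No consistent pairing by the replicate numbers of the titles was seen in the comparisons checked. These were control against hFXR within each tissue and control WAT against control BAT, and hFXR BAT was not set against hFXR WAT. Between control tissues, the same number gave the highest correlation for control WAT 1 and 2 (0.26 and 0.16) but not for 3 and 4. Within tissues that held only for control BAT 5 (0.28) and control WAT 2 (0.16). Correlations of deviations between same-numbered arrays ranged from -0.49 to 0.28 in BAT, from 0.01 to 0.16 in WAT and from -0.08 to 0.26 between control tissues. With the replicate block, 16 members were higher in BAT. Signal over background limits the 19 members near the floor in WAT, and the number of arrays limits all.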

Other observations

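The companion genes of the collagens also differed between tissues in their change. Of 17 folding and hydroxylation genes, Plod1, a lysyl hydroxylase, changed more in WAT, with a difference (WAT change minus BAT change) of 0.51 ± 0.13 (adjusted p = 0.0318 in limma). P3h2 and P3h3, of the prolyl 3-hydroxylase family, changed more in BAT, with differences of -0.35 (adjusted p = 0.0109) and -0.25 (adjusted p = 0.0119). Of 13 trimming and crosslinking genes, Pcolce had a difference of -0.84 ± 0.19 (adjusted p = 0.0137), with changes of 1.54 in BAT and 0.70 in WAT. Of 11 receptors, Ddr2 (-0.76, adjusted p = 0.00319), Itga11 (-0.42, adjusted p = 0.00121) and Lair1 (-0.18, adjusted p = 0.045) changed more in BAT and Ddr1 (0.31, adjusted p = 0.0466) changed more in WAT. Of 9 fibroblast and progenitor markers, 6 had a lower and 0 a higher change in WAT than in BAT. Of 10 macrophage markers, 5 had a lower and 0 a higher change. Of 8 brown adipocyte markers 7 had a higher change, as had 1 of 8 adipocyte markers, and the other marker lists gave no call. Among all genes, 2.03% had a lower and 4.43% a higher change in WAT. The genes of this paragraph were picked with their values known.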
